A study of Mus musculus with 8 samples.

Results

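Adventitial fibroblasts are represented here by 10 genes, namely Pi16, Dpt, Cd34, Clec3b, Ly6a, Scara5, Cd248, Serpinf1, Gpc3 and Fn1. All 10 were found by symbol in a table of 48607 assembled loci. Where a symbol stood at more than 1 locus, the values are those of the locus with the larger count sum. The table came from RNA-seq of whole aortas of mice on a Western diet for 12 weeks, with 8 libraries. By title, 5 libraries came from ApoE-/- mice (numbered 1 to 5) and 3 from NPRC-/-ApoE-/- mice (numbered 1 to 3). ApoE-/- mice lack apolipoprotein E and develop atherosclerosis on this diet, so both groups share that deletion and the diet. The NPRC-/-ApoE-/- mice also carry a CRISPR frameshift in Npr3, the gene of natriuretic peptide receptor C, in every tissue. The NPRC-/- line was made on a C57BL/6 background and crossed with ApoE-/- mice, and the groups were littermates. The ApoE-/- mice that were bought for the study were males aged 8 weeks, while the age and sex of the littermates used for RNA-seq are not given in the sources used here. The group size given for RNA-seq was 5 for both genotypes, whereas 3 libraries titled NPRC-/-ApoE-/- were analysed here. The genotype field of the sample records contradicts the title for 4 libraries. There, ApoE-/- 4 and ApoE-/- 5 are entered as Nprc-/-Apoe-/-, while NPRC-/-ApoE-/- 1 and NPRC-/-ApoE-/- 2 are entered as Apoe-/-. The genes were therefore compared by title and, separately, by the genotype field. By either label 5 libraries stand against 3.

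The adventitia is the outer coat of the aorta, a loose collagen layer with fibroblasts, nerves, small vessels, resident macrophages and fat cells beside it. Its fibroblasts carry the surface antigens CD34 and SCA-1 (encoded by Ly6a) and secrete matrix proteins and proteins that bind growth factors and proteases. Some of these cells can take up a myofibroblast state in injured or diseased arteries. Cd34 and Ly6a are also used by endothelial cells, and fibronectin is made by smooth muscle, endothelial cells and macrophages as well, so a whole-aorta level of these genes is not a level in fibroblasts alone.

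The total count per library was 62969165 to 86693276. Levels are in FPKM, that is, fragments divided by transcript length in kilobases and by the number of mapped fragments. Npr3 had 1.69, 0.93, 0.62, 1.01 and 1.67 FPKM in ApoE-/- 1 to 5 and 1.18, 1.39 and 1.13 FPKM in NPRC-/-ApoE-/- 1 to 3 by title. The level of Npr3 RNA therefore overlapped between the titled groups, and a frameshift need not lower it, so it does not check the labels. The smooth muscle gene Acta2 was at 849.37 to 1982.09 FPKM in the 8 libraries, which are labelled as aorta. All 10 adventitial fibroblast genes were above 3 FPKM in every library. Tcf21, a transcription factor gene of many fibroblasts, averaged 0.22 FPKM and was not tested.

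All 10 genes passed the filter on low values (at least 1 FPKM in at least 3 libraries), which left 20506 loci. By title, the log2 fold change of NPRC-/-ApoE-/- over ApoE-/- was below 0 for 8 of the 10 genes, and its median was -0.37, against a median of -0.01 over all loci tested, of which 50.9% were below 0. Without adjustment, 3 of the 10 genes had a p-value under 0.05, and all 3 (Dpt, the Ly6a locus and Cd248) were lower in the NPRC-/-ApoE-/- libraries. Of all loci tested, 7.13% were lower and 6.51% higher at that threshold. With adjustment over all loci, 0 of the 10 genes and 0% of all loci passed 0.05 in edgeR's quasi-likelihood test, 0 of the 10 and 0.00975% of all loci passed in limma on log2(FPKM + 1), and 1 of the 10 (Dpt) and 3.17% of all loci passed in DESeq2. The criterion of the study asks for a fold change of more than 2 or less than 0.5 and an unadjusted p-value under 0.05. It was met by 0 of the 10 genes and by 3.47% of all loci. Without NPRC-/-ApoE-/- 1 it was met by 1 of the 10, Dpt, with a log2 fold change of -1.01, and by 1635 of all 20506 loci. The FPKM of 2 of the 10 genes (Dpt and Cd248) did not overlap between the titled groups and was lower in NPRC-/-ApoE-/-, as for 4.37% of all loci. When single libraries were left out, Dpt had an unadjusted p-value under 0.05 each time. The Ly6a locus did not without ApoE-/- 3, ApoE-/- 4, NPRC-/-ApoE-/- 2 or NPRC-/-ApoE-/- 3, and Cd248 did not without ApoE-/- 2, ApoE-/- 3, ApoE-/- 4, NPRC-/-ApoE-/- 1 or NPRC-/-ApoE-/- 2, so that 1 gene of the 10 had such a p-value without ApoE-/- 3 or NPRC-/-ApoE-/- 2. Without ApoE-/- 4 there were 2, Dpt and Pi16, and without ApoE-/- 2 or NPRC-/-ApoE-/- 1 there were 2, Dpt and the Ly6a locus. The share of all loci at that threshold is not given here for the fits with a library left out. A whole-aorta library cannot tell fewer fibroblasts from less RNA of these genes per fibroblast.

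**Figure D1:**
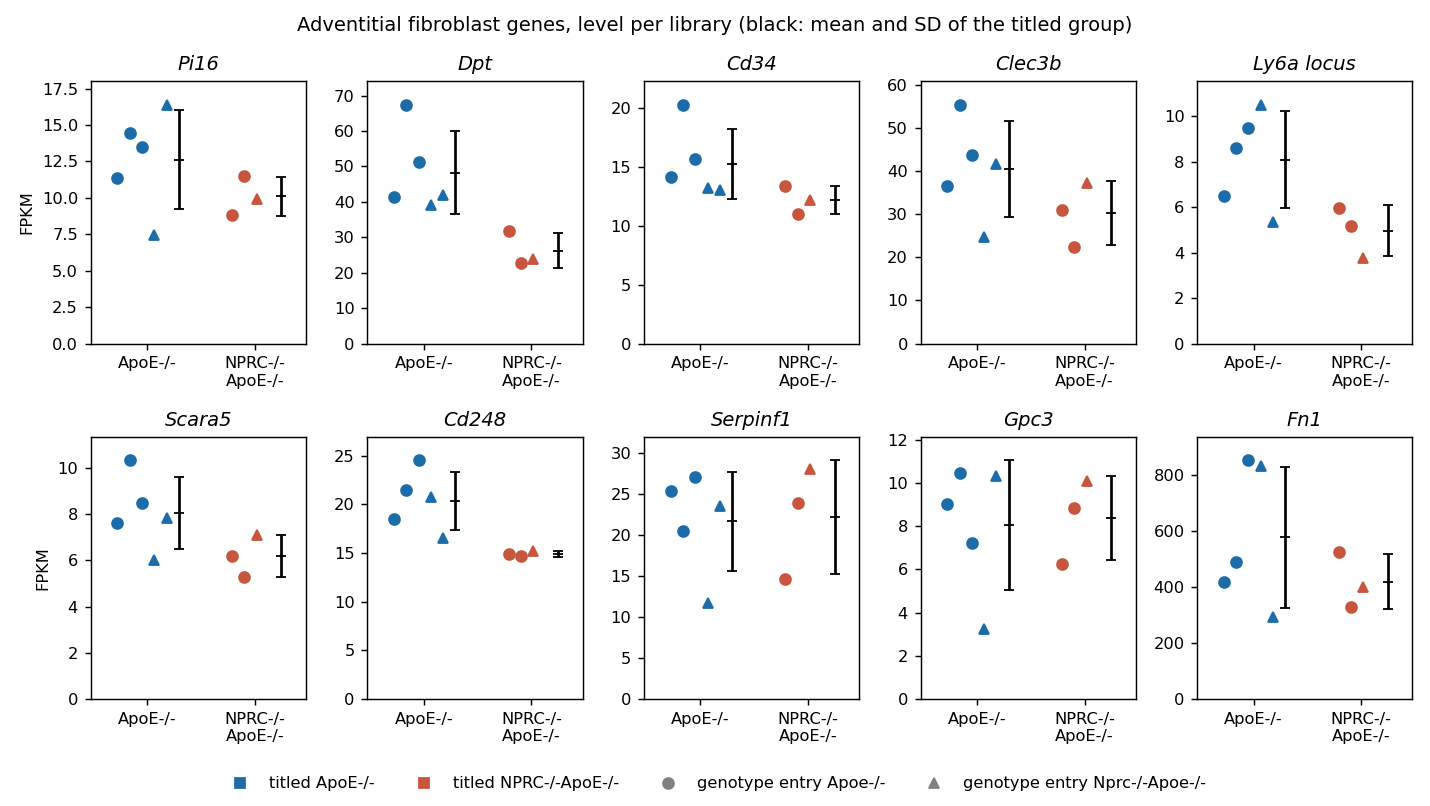
FPKM of the 10 genes in each library on linear axes from 0, with 5 libraries titled ApoE-/- (blue) and 3 titled NPRC-/-ApoE-/- (red). Circles and triangles mark the genotype field, and black bars the mean and SD of each titled group. The lowest Dpt value of the titled ApoE-/- group (39.25) lies above the highest of the other group (31.84), whereas the groups overlap for Gpc3, Serpinf1 and Fn1.

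Among the matrix genes, Dpt encodes dermatopontin, a small protein that binds decorin and collagen fibrils. Its FPKM was 41.46, 67.38, 51.18, 39.25 and 41.88 in ApoE-/- 1 to 5, and 31.84, 22.71 and 23.92 in NPRC-/-ApoE-/- 1 to 3. Every NPRC-/-ApoE-/- library was below every ApoE-/- library. The group means were 48.2 ± 11.6 (SD, n = 5) and 26.2 ± 4.96 FPKM (SD, n = 3). The log2 fold change was -0.86 (standard error 0.21), a ratio of 0.549, with an adjusted p = 0.255 (edgeR) over all loci and 0.0147 in DESeq2. Over the 19 settings of the comparison by title, its log2 fold change stayed below 0. It ran from -1.08 in the 4 libraries with matching labels to -0.27 where the genotype field replaced the title. Over the 15 settings of the comparison by the genotype field, it ran from -0.42 to -0.07, both with 1 library left out.

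Fn1 encodes fibronectin, which cells assemble into fibrils through integrins, and it was the most abundant of the 10 genes per transcript length. It stood at 417.22, 490.03, 852.35, 832.91 and 294.22 FPKM in ApoE-/- 1 to 5, and at 526.53, 330.31 and 401.4 FPKM in NPRC-/-ApoE-/- 1 to 3. The libraries titled ApoE-/- 3 and 4 were high, whereas ApoE-/- 5 was the lowest of all 8, so the groups overlapped. Its fold change by title was -0.47 on the log2 scale with a standard error of 0.43 (adjusted p = 0.644, edgeR). The Fn1 locus alone took 0.415 to 1.2% of all counts of a library. A second assembled locus inside Fn1, on the opposite strand at chr1:71638555-71641946, had 14.39 and 14.88 FPKM in ApoE-/- 3 and 4 and 2.72 to 8.88 FPKM in the other libraries. Whether the counting used strand is not given in the sources used here, so its reads cannot be told apart from those of Fn1. In ApoE-/- 3 and 4 the 10 macrophage markers also summed highest, to 2207.54 and 2303.06 FPKM against 348.45 to 1508.7 in the other libraries, and the part of macrophages in the Fn1 level was not tested.

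Pi16 encodes peptidase inhibitor 16, a marker of fibroblast progenitors around vessels. ApoE-/- 1 to 5 had 11.39, 14.44, 13.51, 7.42 and 16.38 FPKM, and NPRC-/-ApoE-/- 1 to 3 had 8.83, 11.51 and 9.95 FPKM. ApoE-/- 5 and ApoE-/- 4, which are labelled alike, were the highest and the lowest of all 8, so the spread within the ApoE-/- title covered the other group. By title the log2 fold change was -0.29 with a standard error of 0.22 (adjusted p = 0.576, edgeR). Without ApoE-/- 4 it was -0.41, with an unadjusted p-value under 0.05.

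Clec3b encodes tetranectin, a secreted lectin that binds plasminogen. Tetranectin RNA was at 36.62, 55.41, 43.78, 24.77 and 41.66 FPKM in ApoE-/- 1 to 5, and 31.11, 22.53 and 37.3 FPKM in NPRC-/-ApoE-/- 1 to 3. The groups overlapped, with ApoE-/- 4 below all but 1 of the other libraries. Clec3b had a log2 fold change of -0.38 (standard error 0.26, adjusted p = 0.532, edgeR).

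Serpinf1 encodes PEDF, a secreted serpin without protease inhibition that is known as an inhibitor of angiogenesis. Its FPKM was 25.47, 20.57, 27.1, 11.74 and 23.63 in ApoE-/- 1 to 5, and 14.63, 23.99 and 28.11 in NPRC-/-ApoE-/- 1 to 3. Apart from the low values of ApoE-/- 4 and NPRC-/-ApoE-/- 1, the libraries of both titles lay between 20.57 and 28.11. A log2 fold change of 0.07 (standard error 0.30, adjusted p = 0.937, edgeR) turned to -0.06 when ApoE-/- 4 was left out.

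Among the surface proteins, Cd34 encodes a sialomucin of progenitors, fibroblasts and endothelial cells. Levels of 14.09, 20.25, 15.68, 13.2 and 13.02 FPKM in ApoE-/- 1 to 5 stood against 13.36, 11 and 12.15 FPKM in NPRC-/-ApoE-/- 1 to 3. Only NPRC-/-ApoE-/- 1 reached into the range of the ApoE-/- title. Cd34 had a log2 fold change of -0.30 (standard error 0.17, adjusted p = 0.459, edgeR). Of 10 endothelial markers, 7 had a log2 fold change below 0, with a median of -0.12, and their part in the Cd34 level was not tested. Cdh5, the gene of VE-cadherin, was at -0.25 and its FPKM was lower without overlap, Cldn5 was at -0.55 and Egfl7 at -0.35, all with an unadjusted p-value above 0.05. The most abundant, Pecam1 and Vwf, were at 0.10 and -0.09, and Erg, at 0.48, was the 1 marker with an unadjusted p-value under 0.05.

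Ly6a encodes SCA-1, a small lipid-anchored antigen of the LY6 family. The assembled locus reached from Ly6a to Ly6c1, Ly6c2 and I830127L07Rik, so its values are those of the whole locus, and Ly6c2 is known from monocytes. Its FPKM was 6.48, 8.6, 9.49, 10.5 and 5.34 in ApoE-/- 1 to 5, and 5.97, 5.18 and 3.75 in NPRC-/-ApoE-/- 1 to 3. The libraries ApoE-/- 1, 2, 3 and 4 were above all NPRC-/-ApoE-/- libraries, whereas ApoE-/- 5 lay within their range. The locus had a log2 fold change of -0.70 (standard error 0.27), with an adjusted p = 0.326 in edgeR and 0.157 in DESeq2. The macrophage markers ran the same way by library, with their highest sums in ApoE-/- 3 and 4 and their lowest in NPRC-/-ApoE-/- 3, and their part in this difference was not tested.

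Cd248 encodes endosialin, a collagen- and fibronectin-binding receptor of fibroblasts and pericytes. Its FPKM was 18.49, 21.46, 24.5, 20.7 and 16.55 in ApoE-/- 1 to 5, and 14.87, 14.65 and 15.22 in NPRC-/-ApoE-/- 1 to 3. In FPKM the groups did not overlap, but they did in log2 CPM (log2 counts relative to the TMM-scaled library size, the scaling of the test), so the separation was narrow. The group means were 20.3 ± 3.02 (SD, n = 5) and 14.9 ± 0.287 FPKM (SD, n = 3). Cd248 had a log2 fold change of -0.43 (standard error 0.17, adjusted p = 0.332, edgeR).

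Scara5 encodes a scavenger receptor that takes up ferritin. Its FPKM was 7.64, 10.33, 8.5, 6 and 7.84 in ApoE-/- 1 to 5, and 6.21, 5.3 and 7.09 in NPRC-/-ApoE-/- 1 to 3. The groups overlapped through ApoE-/- 4 and NPRC-/-ApoE-/- 3 and 1, with a log2 fold change of -0.35 (standard error 0.18, adjusted p = 0.431, edgeR).

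Gpc3 encodes glypican 3, a heparan sulfate proteoglycan that binds hedgehog and WNT ligands. Its FPKM was 9.03, 10.45, 7.23, 3.23 and 10.32 in ApoE-/- 1 to 5, and 6.23, 8.83 and 10.07 in NPRC-/-ApoE-/- 1 to 3. The library ApoE-/- 4 was low by itself, and the other 7 libraries lay between 6.23 and 10.45 FPKM in no order of title. Gpc3 had a log2 fold change of 0.11 (standard error 0.33, adjusted p = 0.912, edgeR), and it was -0.07 without ApoE-/- 4.

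In mean FPKM over the 8 libraries, the order of the 10 genes was Fn1 (518), Dpt (39.95), Clec3b (36.6), Serpinf1 (21.9), Cd248 (18.3), Cd34 (14.1), Pi16 (11.7), Gpc3 (8.17), Scara5 (7.36) and the Ly6a locus (6.91). Fn1 stood apart from the others in every library, whereas neighbours such as Dpt and Clec3b, Cd34 and Pi16, or Gpc3, Scara5 and the Ly6a locus had overlapping ranges. The coefficient of variation over the 8 libraries was between 19.8% (Cd248) and 41.3% (Fn1), and the ratio of the highest to the lowest library between 1.67 (Cd248) and 3.24 (Gpc3).

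In GRCm38 with the GENCODE M21 annotation, all 10 genes are protein-coding, and their loci covered the whole gene, exons and introns included. On the plus strand, the loci are Pi16 at chr17:29317680-29330593, Dpt at chr1:164796644-164824266, Cd34 at chr1:194930312-194961279, Clec3b at chr9:123150946-123157432, Scara5 at chr14:65666403-65764826 and Cd248 at chr19:5068078-5070682. On the minus strand, they are Serpinf1 at chr11:75409769-75422701, Gpc3 at chrX:52272426-52613950, Fn1 at chr1:71585520-71653296 and the Ly6a locus at chr15:74994877-75135059, of which Ly6a itself ends at 74998031. The Cd34 locus began 8507 bases before the annotated gene and the Fn1 locus reached 96 bases beyond it. Clec3b had another locus past its end, with 0.38 to 1.46 FPKM, and Gpc3 one inside an intron, with 0.73 to 2.88 FPKM.

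Promoter sequences of 5 of the 10 genes (Pi16, Dpt, Cd34, Serpinf1 and Gpc3) were found in RefSeq (GRCm38.p6). Those of Dpt and Gpc3 are shown because Dpt had the largest difference between the titled groups and Gpc3 had no separation of the groups. Each runs 5′ to 3′ from 250 bases before to 50 bases after the start of the gene. That of Dpt lies on the plus strand at chr1:164796413-164796712, and that of Gpc3 on the minus strand at chrX:52613925-52614224. Capitals mark matches on either strand to any of 5 motifs. The TATA box was searched as TATAAA and the GC box as GGGCGG. The motif of AP-1 factors was searched as TGANTCA and that of TEAD factors as CATTCC. The CArG box of serum response factor was the fifth.
Dpt: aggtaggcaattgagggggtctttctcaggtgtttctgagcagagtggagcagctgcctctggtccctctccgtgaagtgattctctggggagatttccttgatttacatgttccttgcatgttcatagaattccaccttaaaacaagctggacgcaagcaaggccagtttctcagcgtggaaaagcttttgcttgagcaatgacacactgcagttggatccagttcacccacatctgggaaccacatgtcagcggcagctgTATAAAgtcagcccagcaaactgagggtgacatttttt
Gpc3: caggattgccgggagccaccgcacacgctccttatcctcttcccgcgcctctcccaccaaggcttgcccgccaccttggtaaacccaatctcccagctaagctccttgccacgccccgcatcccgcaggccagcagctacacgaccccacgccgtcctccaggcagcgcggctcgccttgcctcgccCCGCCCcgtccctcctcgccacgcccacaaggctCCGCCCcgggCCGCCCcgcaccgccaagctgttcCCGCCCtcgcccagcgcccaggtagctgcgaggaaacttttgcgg
The Dpt window held 1 TATAAA, which begins at position 13 with the RefSeq start counted as 1, and no other searched motif. The Gpc3 window held 4 copies of the GC box, written as its reverse complement, and its G and C content was 70.7%, against 48.7% for Dpt. The windows of Pi16, Cd34 and Serpinf1 held none of the 5 motifs. Of 32851 RefSeq promoter windows of this length, 13.6% held TATAAA, 35.7% the GC box, 14.7% the TEAD motif, 7.81% the AP-1 motif and 1.63% the CArG box.

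By the genotype field, with 3 libraries entered as Nprc-/-Apoe-/- against 5 entered as Apoe-/-, the differences were smaller. The log2 fold change was below 0 for all 10 genes, but its median was -0.09, and all genes but Dpt and Cd34 came out above 0 under at least 1 of 15 settings. Without adjustment 0 of the 10 genes had a p-value under 0.05, where 0.697% of all loci were lower and 0.614% higher. The criterion of the study was met by 0 of the 10 genes and by 0.463% of all loci, and 0 of the 10 and 0% of all loci passed with adjustment in edgeR, with 0 of the 10 also in DESeq2 (0.0439% of all loci) and in limma (0%). No gene of the 10 separated the entered groups in FPKM, where 0.566% of all loci were lower without overlap. The mean FPKM of Dpt was 42.9 in the libraries entered as Apoe-/- and 35.0 in those entered as Nprc-/-Apoe-/-, with a log2 fold change of -0.27 (standard error 0.34, adjusted p = 1, edgeR). For Fn1 the means were 523 and 510 FPKM and the log2 fold change was -0.00 (standard error 0.47). Between the 3 ApoE-/- libraries and the 1 NPRC-/-ApoE-/- library for which title and genotype field match, the log2 fold change was -1.08 for Dpt, -1.05 for the Ly6a locus and -0.42 for Cd248, with no test.

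**Figure D2:**
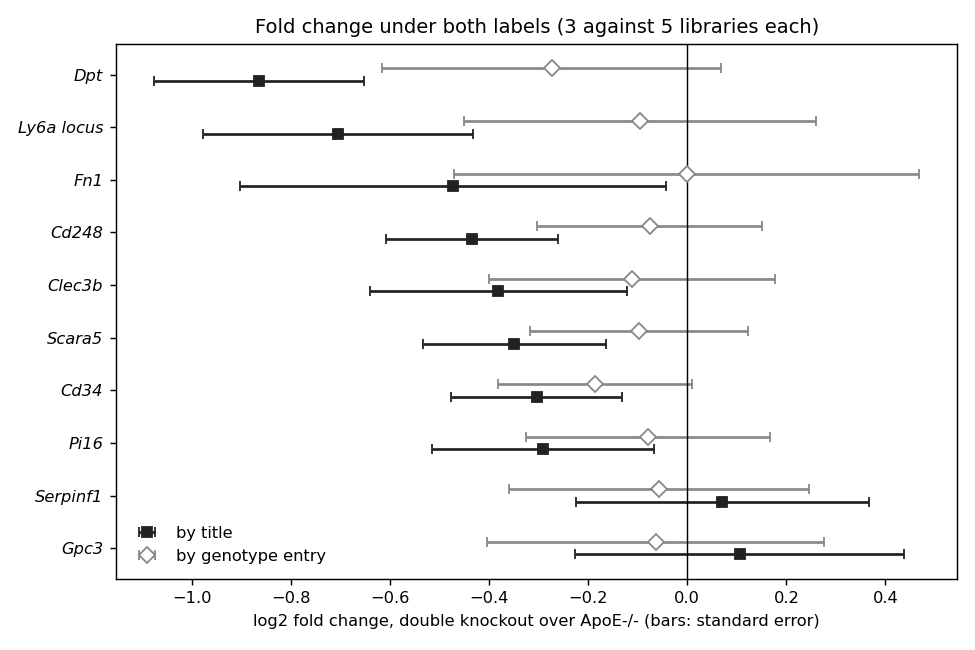
Log2 fold change of the double knockout over ApoE-/- for the 10 genes (horizontal axis), with the standard error as bars, by title (black squares) and by the genotype field (open diamonds), each from 3 against 5 libraries. By title the values run from -0.86 for Dpt to 0.11 for Gpc3, and by the genotype field from -0.27 for Dpt to -0.00 for Fn1.

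The 10 genes did not all follow the same pattern across the libraries, though some shared their high and low libraries. The library ApoE-/- 2 was the highest of the 8 for 5 genes (Dpt, Cd34, Clec3b, Scara5 and Gpc3), and NPRC-/-ApoE-/- 2 the lowest for 5 (Dpt, Cd34, Clec3b, Scara5 and Cd248), so that Dpt, Cd34, Clec3b and Scara5 had the same highest and lowest library. ApoE-/- 4 was the lowest for Pi16, Serpinf1 and Gpc3 but the highest for the Ly6a locus and the second highest for Fn1. Averaged over the 10 genes, the level was 6.71, 7.07, 7.16, 6.61 and 6.67 log2 CPM in ApoE-/- 1 to 5 and 6.48, 6.41 and 6.65 log2 CPM in NPRC-/-ApoE-/- 1 to 3. Both labels give ApoE-/- 2 and 3, the highest on average, as ApoE-/-, whereas the level of ApoE-/- 4, whose labels conflict, was below that of NPRC-/-ApoE-/- 3. In ApoE-/- 2, markers of tissues beside the vessel were also high, with the 8 mesothelial markers at a sum of 6.52 FPKM against 0.17 to 1.2 elsewhere, the 6 B and T cell markers at 18.84 against 0.78 to 3.91, and the white fat markers at 591.84 against 142.79 to 421.51 FPKM. Their part in the levels of the 10 genes was not tested.

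**Figure D3:**
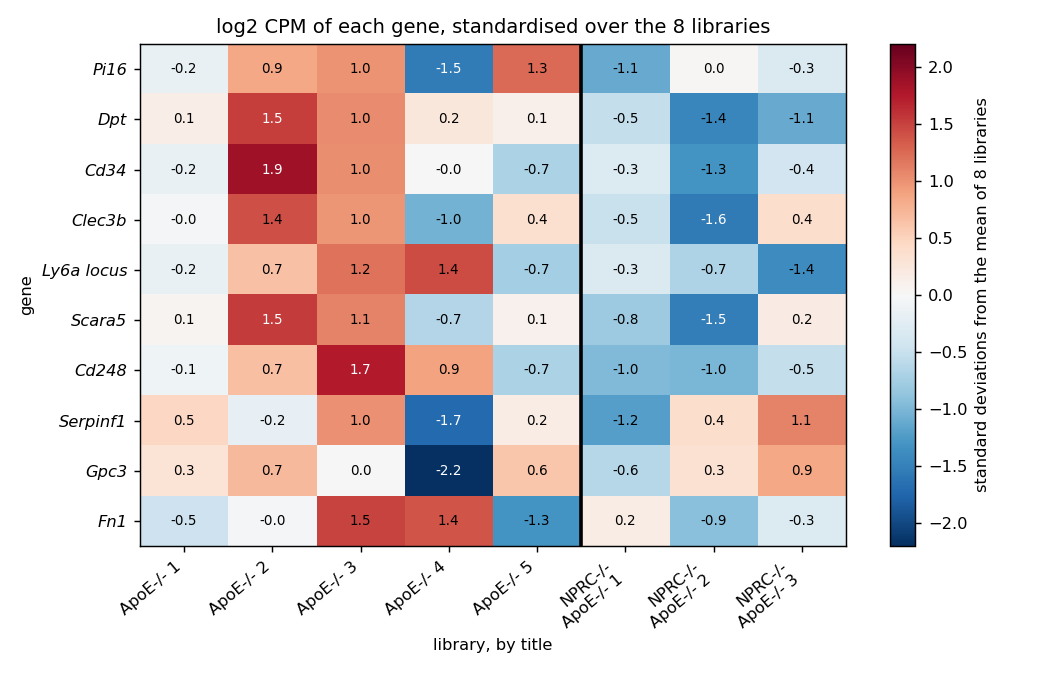
Log2 CPM of the 10 genes (rows) in the 8 libraries (columns, by title), each gene standardised over the 8 libraries, in standard deviations. Red is above and blue below the gene's mean. ApoE-/- 4 is low for Pi16, Serpinf1 and Gpc3 and high for Fn1 and the Ly6a locus, and Dpt is below its mean in all 3 NPRC-/-ApoE-/- libraries.

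A list of 20 other genes of adventitial and perivascular fibroblasts had 19 tested loci, of which 14 had a log2 fold change below 0 by title, with a median of -0.21. Without adjustment 6 were lower and 2 higher, and 0 passed with adjustment. Of all loci, 7.13% were lower and 6.51% higher. The criterion of the study was met by 3 genes of the list, Tnfaip6, Has1 and Dpp4. Tnfaip6 and Dpp4 reached 1 FPKM in ApoE-/- libraries alone. They so passed the filter on low values only through the group where they are high. Both are among the 6 lower genes, so the counts of 6 and 3 cannot be set against the shares of all loci. The values of Tnfaip6 and Dpp4 are given as a description, without a test. Tnfaip6, which encodes a hyaluronan-binding protein, was at 0.54 to 3.96 FPKM in the ApoE-/- libraries and 0.39 to 0.43 FPKM in the NPRC-/-ApoE-/- libraries (log2 fold change -2.27). Has1, a hyaluronan synthase gene, was at 1.38 to 7.52 and 1.15 to 1.84 FPKM, with overlap (log2 fold change -1.44, standard error 0.50, adjusted p = 0.309, edgeR). Dpp4, a protease gene of fibroblast progenitors, was at 0.72 to 1.56 and 0.47 to 0.64 FPKM (log2 fold change -1.02). The 2 higher genes were Efhd1 and Sema3c. Efhd1 was at 19.25 to 28.64 and 27.07 to 49.72 FPKM, with overlap (log2 fold change 0.82, standard error 0.23, adjusted p = 0.255, edgeR). Sema3c was at 9.04 to 13.83 and 11.01 to 17.46 FPKM, with overlap (log2 fold change 0.51, standard error 0.18, adjusted p = 0.311, edgeR). The median of the list by the genotype field was -0.05, and 0 genes had an unadjusted p-value under 0.05.

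General fibroblast and collagen genes gave 11 tested loci of 12, of which 10 were below 0 by title, with a median of -0.65. Without adjustment 2 had a p-value under 0.05, where 7.13% of all loci were lower and 6.51% higher. These were Dcn and Thy1, both lower, with log2 fold changes of -0.84 and -0.87. Mfap4 was above 0, at 0.60. The most abundant, Col1a1 and Col3a1, encode chains of type I and type III collagen. Col1a1 was at 242.12 to 823.06 FPKM in the ApoE-/- libraries and 143.71 to 362.93 FPKM in the others (log2 fold change -1.02, standard error 0.49, adjusted p = 0.393, edgeR), and Col3a1 at 205.92 to 535.59 and 106.12 to 350.16 FPKM (log2 fold change -0.89, standard error 0.48, adjusted p = 0.434, edgeR). Of 12 genes of activated fibroblasts, 11 were tested, 9 were below 0 and 3 had an unadjusted p-value under 0.05, with a median of -0.77. At that threshold 7.13% of all loci were lower and 6.51% higher. Fap, a surface protease gene of activated fibroblasts, was at 1.35 to 2.43 and 0.57 to 1.27 FPKM, without overlap (log2 fold change -1.09, standard error 0.31, adjusted p = 0.266, edgeR). Runx1, a transcription factor gene also used by blood cells, had a log2 fold change of -1.06 (standard error 0.35, adjusted p = 0.297, edgeR). By the genotype field the medians of both lists were -0.07 and -0.04.

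Of 12 genes of fibronectin receptors and fibronectin assembly, 5 were below 0 by title, and the median was 0.13. Without adjustment 2 were lower and 2 higher, against 7.13% and 6.51% of all loci. Itgb8, an integrin gene, was at 4.16 to 7.42 FPKM in the ApoE-/- libraries and 1.57 to 4.06 FPKM in the others, without overlap (log2 fold change -1.08, standard error 0.32, adjusted p = 0.277, edgeR). Itga8, an integrin gene of smooth muscle, had a log2 fold change of 0.68 (standard error 0.28, adjusted p = 0.343, edgeR) and Itgb1, the shared beta chain of fibronectin receptors, one of 0.21 (standard error 0.15, adjusted p = 0.54, edgeR). Itgb8 and Itga8 were at -0.03 and 0.27 on the same scale by the genotype field, and the median of the list was 0.04.

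Markers of other cells of the aortic wall also differed by title, though 0% of all loci passed with adjustment in edgeR. Of all loci tested, 7.13% were lower and 6.51% higher at an unadjusted p-value under 0.05, and 3.47% met the criterion of the study. All 10 macrophage markers had a log2 fold change below 0 and 6 had an unadjusted p-value under 0.05, with sums of 742.21 to 2303.06 FPKM in the ApoE-/- libraries and 348.45 to 1159.23 FPKM in the NPRC-/-ApoE-/- libraries. C1qa, C1qb, C1qc and Fcgr1 met the criterion of the study, with log2 fold changes of -1.37, -1.45, -1.47 and -1.46. All 10 smooth muscle markers were above 0 and 9 had an unadjusted p-value under 0.05, with sums of 1357.42 to 1811.63 and 1745.87 to 3003.53 FPKM. Acta2, Tagln and Mylk4 had log2 fold changes of 0.61, 0.53 and 1.01. Of 6 Schwann cell markers 4 were tested, and all 4 had an unadjusted p-value under 0.05 with lower values in NPRC-/-ApoE-/-, but 2 of the 4 reached 1 FPKM in ApoE-/- libraries alone. The 6 markers had sums of 6.4 to 8.15 and 3.04 to 4.92 FPKM that did not overlap. Mbp and Cdh19 had log2 fold changes of -0.69 and -0.89. The 10 endothelial markers summed to 110.79 to 124.16 and 100.7 to 114.78 FPKM. White fat markers summed to 142.79 to 591.84 and 244.88 to 411.45 FPKM, and brown fat markers to 125.28 to 592.84 and 352.43 to 559.48 FPKM, with 0 genes of either list under an unadjusted p of 0.05. Lymphatic markers summed to 14.06 to 25.55 and 14.53 to 17.84 FPKM, skeletal muscle markers to 0.78 to 9.35 and 5.07 to 7.67, and heart muscle markers to 1.16 to 13.66 and 1.07 to 5.01. The 2 most abundant genes of these lists had log2 fold changes of -0.27 (Adipoq) and 0.02 (Pck1), 0.44 (Ucp1) and 0.34 (Cox8b), 0.47 (Lyve1) and -0.86 (Pdpn), 0.87 (Ckm) and 1.23 (Acta1), and -2.09 (Myh6) and -1.29 (Actc1), and the one tested B and T cell gene, Cd79b, one of -2.22. No mesothelial marker passed the filter. B and T cell markers summed to 2.19 to 18.84 and 0.78 to 3.08 FPKM, and 1 of the 6 passed the filter. The part of these cells in the levels of the 10 genes was not tested. By the genotype field 0 genes of any of the 15 lists had an unadjusted p-value under 0.05, and the medians of the macrophage, smooth muscle and Schwann cell markers were -0.17, 0.17 and 0.04.

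**Figure D4:**
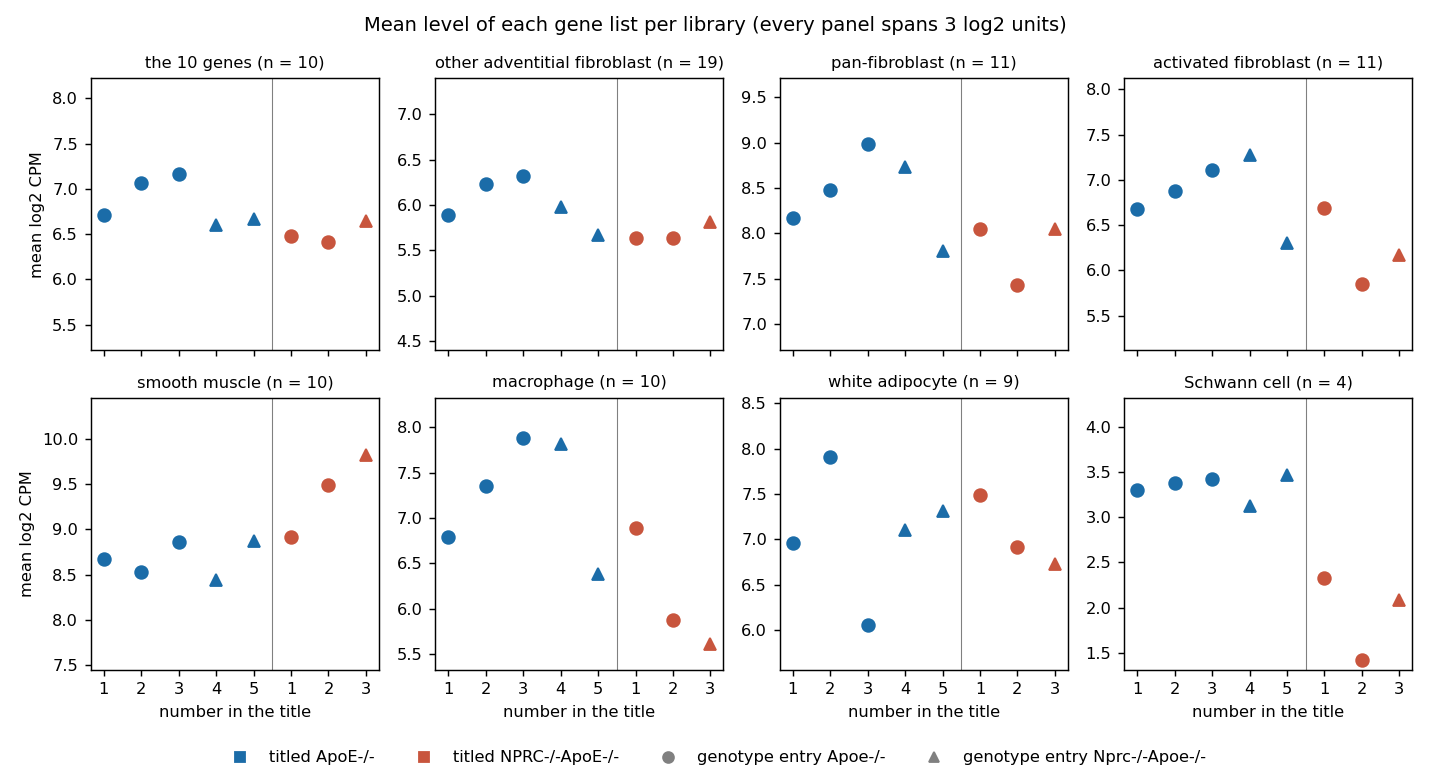
Mean log2 CPM of 8 gene lists in each library, by number in the title, with titled ApoE-/- in blue, titled NPRC-/-ApoE-/- in red and the genotype field as circles and triangles. Each panel spans 3 log2 units, and n is the number of tested genes. The mean of the 10 genes lies between 6.41 and 7.16, with the titled groups overlapping, whereas the smooth muscle and Schwann cell means do not overlap between the titles. For smooth muscle the gap is narrow, from 8.87 in ApoE-/- 5 to 8.92 in NPRC-/-ApoE-/- 1, and the summed FPKM of these markers overlap.

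Among 4232 loci with a gene name and a mean of at least 5 FPKM outside the 10 genes, the 8 whose log2 CPM over the 8 libraries was most like the standardised mean of the 10 were Hist1h3h, Gm10591, Ccn1, Klf2, Nid1, Nr4a1, Ccl9 and Spry2. Their Pearson correlation with that mean was 0.962 for Hist1h3h, 0.959 for Gm10591, 0.958 for Ccn1 and 0.911 to 0.952 for the others, over 8 libraries. The levels were scaled for library size, but genes read from the same libraries can still share a difference between groups or between libraries. Ccn1 and Nr4a1 are immediate early genes, Klf2 is a transcription factor gene that responds to blood flow, and Nid1 encodes the basement membrane protein nidogen 1. Ccn1 was at 45.34 to 119.1 FPKM in the ApoE-/- libraries and 37.46 to 44.21 FPKM in the others (log2 fold change -0.83, adjusted p = 0.328, edgeR), and the highest value was that of ApoE-/- 2, the library in which 5 of the 10 genes were also highest. The log2 fold change of Ccn1 by the genotype field was -0.54. None of the 8 came from the 15 lists.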

How the data were processed

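Whole-aorta poly(A) RNA was sequenced as paired ends from dUTP-marked libraries. Per the labels and the paper's methods, the authors trimmed reads (cutadapt 1.9, FastQC), mapped them with HISAT2 to GRCm38, assembled them with StringTie and deposited raw counts per assembled locus and FPKM values, normalized to transcript length and mapped fragments by the authors. The counter and its strand setting are not given in the sources used here. All value columns were matched to a sample.

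Of 48607 loci, the 20506 that reached 1 FPKM in 3 or more of the 8 libraries were tested on counts by quasi-likelihood fits after TMM scaling (edgeR 4.0.16, R 4.3.3), with Benjamini-Hochberg adjustment over all of them. The biological coefficient of variation was 0.327, and the number of libraries limits the precision. The script was tested on simulated data. Log2 CPM values use a prior count of 2. Alternatives were DESeq2 1.42.0, limma 3.58.1 on log2(FPKM + 1) and log2(FPKM + 0.1) (fold changes on that scale understate those of low genes), median-ratio scaling, other filters, the genotype field, a replicate block and each library left out.

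The 10 genes and the 15 other lists were chosen with earlier results of these data known. Named genes were the 10, Npr3, of each list the genes that met the criterion of the study (at most 4, by p, or the 2 most abundant where fewer than 2 did) and the 8 loci most alike; other genes named in the text were chosen after their values were seen. The result of 1 gene named by this rule is not reported here. Libraries of 1 title differed by far more than sampling noise (lowest mean chi-square per locus 140). The labels do not say that each library came from 1 mouse, so p-values measure the spread between these libraries.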

Additional observations from a re-analysis of the deposited data

How the results depend on the processing

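By title, 3 of the 10 genes had an unadjusted p-value under 0.05 with a median log2 fold change of -0.37. These became 0 genes and -0.088 by the genotype field. Leaving out each library gave 1 to 3 genes and medians of -0.46 to -0.25, and DESeq2, limma, median-ratio scaling and both other filters gave 3 genes each. The libraries share numbers 1 to 3, and same-numbered libraries did not deviate together (correlations of -0.31, -0.11 and 0.01). With only 3 correlations this cannot exclude that the numbers pair the libraries. In the 6 numbered libraries a replicate block gave 2 genes and a median of -0.45, and without it 5 genes and -0.49, where Dpt also met the criterion of the study. Apart from the main fits of all 8 libraries, the share of all loci at that p-value threshold is not given here. These counts of genes therefore have no background to be set against. Serpinf1 and Gpc3, above 0 by title, were at -0.057 and -0.064 by the genotype field, -0.152 and -0.080 with the replicate block, -0.109 and -0.052 in those 6 libraries without it, and from -0.164 to 0.312 and -0.080 to 0.295 with each library left out. By the genotype field Fn1 was at 0.010 in DESeq2 and with median-ratio scaling and at 0.0054 without the filter. With each library left out, that reading gave medians of -0.17 to -0.0010, and -0.37 to 0.15 for Pi16, -0.23 to 0.087 for Clec3b, -0.64 to 0.17 for the Ly6a locus, -0.19 to 0.024 for Scara5, -0.22 to 0.079 for Cd248, -0.36 to 0.25 for Serpinf1, -0.33 to 0.32 for Gpc3 and -0.56 to 0.31 for Fn1. The cause was not tested. By the genotype field with each library left out, Dpt ran from -0.42 to -0.070 and Cd34 from -0.26 to -0.064. Over all loci by title, 712 met the criterion of the study and 0 passed with adjustment in edgeR. These counts were 798 and 650 in DESeq2, 175 and 2 in limma on log2(FPKM + 1), 662 and 0 on log2(FPKM + 0.1), 2287 and 0 without the filter (44689 tested), 114 and 2 at a mean of at least 5 FPKM (4246 tested), 917 and 1 in the 6 libraries without the block, and 403 to 1635 and 0 to 45 with each library left out. Of all loci, 2797 had an unadjusted p-value under 0.05. By the genotype field 95 met the criterion in edgeR, 23 in limma on log2(FPKM + 1), 785 without the filter, 7 at a mean of at least 5 FPKM and 84 to 240 with each library left out, and 0 passed with adjustment in edgeR against 9 in DESeq2. The smaller group had 3 libraries, which limits the precision of each comparison.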
